A study of Homo sapiens with 6 samples.

Results

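Antisense RNA genes were examined under hypoxia and normoxia in libraries labelled SCC25, an established line from a human oral squamous cell carcinoma. For the plot of this transcriptome the study's text names SCC9, another line of that kind, so which line was sequenced is not settled here. A gene was taken as antisense when the annotation of the count table called it non-coding and its symbol ended in -AS1, -AS2 or -AS3, and as detected when it had 10 reads or more in at least 3 of the 6 libraries. Of 917 antisense rows among the 21776 rows of the table, 430 were detected (46.9%), and these 430 genes are described here. The genes were thus chosen by their read counts in these libraries, and the gene named before -AS (the partner) was used only for comparison.

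The cells were labelled wild type, and both groups were kept in their atmosphere for 12 h at 5% CO2. The hypoxia group of 3 libraries was held in 1% O2 balanced with nitrogen, and the normoxia group of 3 libraries in humidified air. All libraries were made from RNA of this 1 line with a SMARTER mRNA-Seq kit. The labels do not say whether the 3 libraries of a group came from separate cultures, so the p-values measure the spread between libraries, which may be technical. The totals were 30186813, 36076088 and 32272716 reads in hypoxia replicates 1 to 3 and 37278703, 29637189 and 29981208 reads in normoxia replicates 1 to 3.

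An antisense gene is transcribed from the DNA strand opposite to another gene, which it may overlap at the start, at the end or along its whole length, or which it may only adjoin. Such RNAs are often few in number per cell, and some are known to act on the transcription, splicing or stability of the partner RNA while many have no known function. Under low oxygen the hypoxia-inducible factors (HIF), whose alpha subunits are otherwise hydroxylated by prolyl hydroxylases and degraded, bind a short DNA core next to the genes that they activate, and antisense genes lie beside several members of this pathway.

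The line expressed the squamous and epithelial markers KRT5, TP63, EPCAM, ITGA6, ITGB4 and CDH1, and several markers of this list changed. KRT6A, a keratin of activated epithelium, had 18, 28 and 49 reads under hypoxia and 695, 537 and 356 under normoxia (log2-fold change -4.12 ± 0.25). ITGB4 (1.99 ± 0.09), DSG3 (1.35 ± 0.14), CDH1 (1.35 ± 0.05) and KRT17 (1.06 ± 0.11) were higher, ITGA6 (-0.68 ± 0.05), EPCAM (-0.35 ± 0.05) and KRT5 (-0.18 ± 0.06) were lower, and TP63 did not pass. KRT14, a keratin of basal squamous cells, was at 0 in 5 of the 6 libraries and at 1 read in the other. Of 10 markers of other cell types with a row in the table, PTPRC of leukocytes had 2 reads in 1 library and CD3E of T cells 1 read in 1 library. COL1A1 (log2-fold change 2.26 ± 0.16, SE) and ACTA2 (0.71 ± 0.08) were higher under hypoxia, none of the 10 was lower, and their summed level was 76.9, 78.3 and 77.9 CPM (counts scaled to the normalized library total) under hypoxia and 53.0, 52.8 and 56.3 CPM under normoxia. CD68, the most abundant of them per length, had 18.5 FPKM under hypoxia and 19.1 FPKM under normoxia and did not pass, and 2 endothelial markers were too low to be tested. PECAM1 had 5, 9 and 10 reads under hypoxia and 2, 0 and 0 under normoxia, and VWF had 10, 9 and 4 reads against none, so that neither overlapped between the groups. The part of these genes in the results below was not tested.

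The antisense genes took a larger share of the reads under hypoxia. The 265 genes with 10 reads or more in all 6 libraries held 0.151%, 0.155% and 0.149% of the reads of the 3 hypoxia libraries and 0.109%, 0.101% and 0.109% of those of the normoxia libraries. The groups did not overlap, with a ratio of means of 1.42 (exact permutation test, two-sided, p = 0.1, which is the smallest that 3 against 3 libraries allow). For all 430 genes, some of which were detected through their hypoxia reads alone, the ratio was 1.52 as a description. Without HILPDA-AS1 and BCAN-AS1, which were left out after their values were seen, the ratio was 1.46. In bulk libraries such as these, more cells that make an RNA and more of it per cell cannot be told apart.

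Most of the antisense genes were low. Their levels, averaged over the libraries as FPKM (fragments per kilobase of gene, scaled to the library total), ran from 0.025 to 22.4 with a median of 0.70, and 160 of the 430 reached 1 FPKM. Detected protein-coding genes had a median of 6.21 FPKM, and detected genes with the prefix LINC had 0.71 FPKM. The gene length behind the FPKM had a median of 1990 bases for the antisense genes and 4245 for protein-coding genes. At the limit of detection, 16 antisense genes had a third-highest count of exactly 10, such as CYP51A1-AS1 with 10, 14 and 14 reads under hypoxia and 5, 4 and 1 under normoxia. A further 12 stood just outside with 9, such as BRWD1-AS2 with 9, 9 and 13 reads against 3, 1 and 5.

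The detection rule itself favoured genes of one condition. In all 6 libraries, 265 of the 430 genes had 10 reads or more. Of the other 165, 125 reached the limit in more hypoxia than normoxia libraries, 32 in more normoxia libraries and 8 in equally many. Among these, 56 reached it in all 3 hypoxia libraries and no normoxia library, so that a higher value under hypoxia was built into their choice, and CNIH3-AS2 alone showed the reverse (7, 1 and 3 reads against 13, 19 and 14). The main counts of changed genes are therefore read from the 265, and counts of listed genes below are given with the part of the list that belongs to the 265.

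Among the 265 antisense genes with 10 reads in all 6 libraries, increases outnumbered decreases. By edgeR's quasi-likelihood test, with an adjusted p-value below 0.05 over 14255 genes, 123 were higher under hypoxia, 35 were lower and 107 did not pass, with a median log2-fold change of 0.47. Of the 12665 tested genes with 10 reads in all 6 libraries, 35.6% were higher and 42.6% lower, with a median of -0.07. The antisense genes thus stood at 46.4% higher and 13.2% lower. The hypoxia and normoxia libraries did not overlap for 132 of them in the upward direction and 33 in the downward direction, against 37.0% and 44.1% of the 12665 genes. Of all 430 genes, 418 could be tested, of which 211 were higher, 45 lower and 162 did not pass. Over all 14255 tested genes, 39.2% were higher and 38.5% lower. The median of 0.74 of the 418 genes includes those chosen through hypoxia alone and is given as a description, beside 0.02 for all tested genes. L3MBTL2-AS1 had no normoxia read. Its fitted value and its lower bound both lie above the median, so the choice between them cannot change the median.

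**Figure D1:**
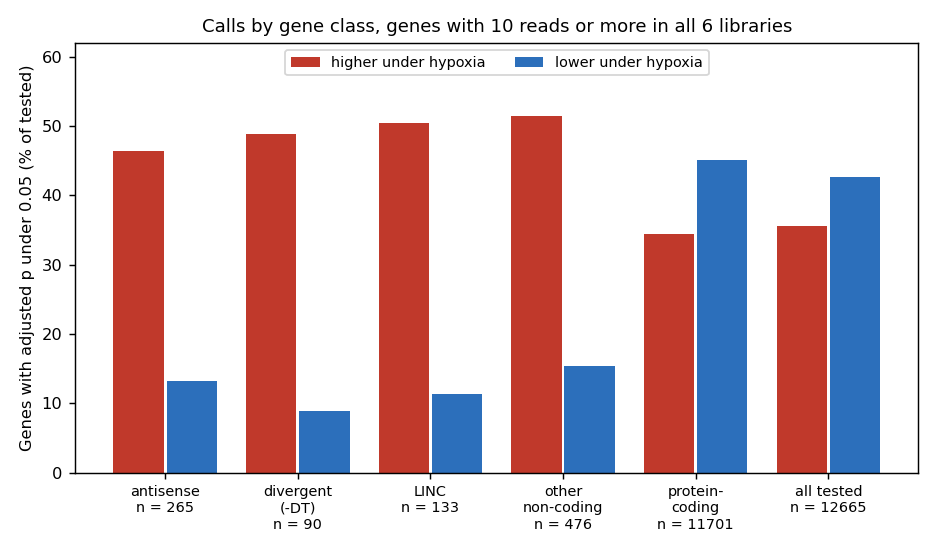
Share of tested genes (%, y axis, from 0) called at an adjusted p-value below 0.05 as higher (red) or lower (blue) under hypoxia, by gene class (x axis), for genes with 10 reads or more in all 6 libraries. The 4 non-coding classes have more higher than lower genes, and for protein-coding genes it is the other way round.

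Other non-coding classes had a like make-up. Among genes with 10 reads in all 6 libraries, the 90 divergent transcripts (suffix -DT, genes that start beside a coding gene and run away from it) had 44 higher and 8 lower, with a median log2-fold change of 0.54. The 133 LINC genes had 67 higher and 15 lower (median 0.62), and the 476 other non-coding genes 245 higher and 73 lower (median 0.57). Of the 11701 protein-coding genes, 4030 were higher and 5269 lower (median -0.11). The surplus of increases was therefore shared by non-coding classes and is not shown to be particular to antisense genes.

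The direction of change was also set beside the level. Below 0.5 FPKM the median log2-fold change was 0.45 for 49 antisense genes and 0.46 for 680 protein-coding genes. Between 0.5 and 2 FPKM it was 0.57 for 136 antisense genes and 0.27 for 1729 protein-coding genes. At 2 FPKM or more it was 0.31 for 80 antisense genes and -0.18 for 9292 protein-coding genes. The medians of protein-coding genes fell with the level, and those of antisense genes had no such order. In the lowest bin the medians were close, while 30.6% of the antisense genes and 41.9% of the protein-coding genes were higher, and in the higher bins the antisense medians lay above. These are descriptions of 1 comparison, and no test was made between the classes. The bins were matched on FPKM and not on reads. Detected antisense genes were shorter (median 1990 bases, against 4245 for protein-coding genes), so shares called at equal FPKM are not at like read depth.

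The antisense genes of the hypoxia pathway included several of the largest changes. As a check of the labels, 15 genes with a known response to hypoxia were all higher (median log2-fold change 2.71). Of a list of 69 hypoxia genes, 6 had a detected antisense gene, 8 antisense genes in all. Of these 8, 5 were higher, none was lower and 3 did not pass, beside 39.2% higher and 38.5% lower of all tested genes. KDM4A-AS1, LOXL1-AS1 and ZEB1-AS1 alone had 10 reads in all 6 libraries, and of these 3, 1 was higher and 2 did not pass. HIF1A-AS2 reached the limit of detection in its hypoxia libraries alone, and HIF1A-AS3, EGLN3-AS1 and BHLHE40-AS1 were below it in 1 normoxia library or more, so the number of increases is a description.

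HIF1A encodes the alpha subunit of HIF-1, and 3 antisense genes carry its name. HIF1A itself fell, with 2410, 2286 and 1964 reads under hypoxia and 11299, 9336 and 9796 under normoxia (log2-fold change -2.26 ± 0.08, SE, n = 3 per group; edgeR adjusted p = 2.08e-13). HIF1A-AS3 had 429, 762 and 623 reads under hypoxia and 9, 26 and 27 under normoxia, and HIF1A-AS2 had 121, 259 and 135 against 3, 3 and 6. For neither did the groups overlap, and every hypoxia library was more than an order of magnitude above every normoxia library. The log2-fold changes were 4.77 ± 0.26 for HIF1A-AS3 and 5.28 ± 0.38 for HIF1A-AS2, given as descriptions, since the hypoxia reads brought both past the limit of detection. HIF1A-AS1, which lies head to head with HIF1A, had 11, 22 and 16 reads against 6, 16 and 8, so its groups overlapped (0.59 ± 0.50, edgeR adjusted p = 0.289).

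The ratio of HIF1A-AS3 to HIF1A, as the log2 of their CPM, was -1.91 ± 0.50 under hypoxia and -8.92 ± 0.90 under normoxia (SD, n = 3). Per length, HIF1A-AS3 stood at 34.2 FPKM under hypoxia and 1.26 FPKM under normoxia, one of the highest levels of any antisense gene. In GENCODE v29, HIF1A-AS3 overlaps the end of HIF1A tail to tail and shares no exon base with it. In RefSeq the spans of HIF1A-AS2 and HIF1A-AS3 overlap each other, so reads may have been divided between them and their separate values are uncertain. No strand setting of the counting was found in the sources, and where an antisense gene overlaps its partner the reads of both cannot be told apart.

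The start of HIF1A-AS3 is shown because this gene rose while its partner fell. The window covers 250 bases before to 50 bases after the start in RefSeq (GRCh38.p14, chr14:61751048-61751347, minus strand), written 5′ to 3′. Capitals mark ACGTG and GCGTG on either strand (CACGT and CACGC where they lie on the other strand), the core that HIF is known to bind.
HIF1A-AS3: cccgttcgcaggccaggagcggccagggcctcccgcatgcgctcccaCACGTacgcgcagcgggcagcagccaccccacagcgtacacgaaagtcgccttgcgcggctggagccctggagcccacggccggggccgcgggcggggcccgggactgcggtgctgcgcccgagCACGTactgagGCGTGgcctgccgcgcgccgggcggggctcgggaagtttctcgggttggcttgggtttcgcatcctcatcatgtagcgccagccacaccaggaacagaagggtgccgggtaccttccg
The window held 2 matches to ACGTG and 1 to GCGTG. A match is only a run of letters and was not tested as a site.

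EGLN3-AS1 is named after the prolyl hydroxylase EGLN3, an oxygen sensor that is itself a HIF target. It had 428, 524 and 494 reads under hypoxia and 2, 1 and 19 under normoxia. The groups did not overlap, and the third normoxia library stood apart from the other normoxia libraries. The log2-fold change, again a description, was 5.94 ± 0.35, and 8.18 without that library. EGLN3 rose from 218, 107 and 317 reads under normoxia to 18603, 27222 and 24182 under hypoxia (6.69 ± 0.20, edgeR adjusted p = 2.55e-14), with the same library the highest of the normoxia group. In GENCODE v29 the antisense gene lies inside EGLN3 without a shared exon base, and in the RefSeq spans the genes lie apart. Its RefSeq window held no match to ACGTG or GCGTG, but the start used for this window lay in no GENCODE v29 transcript of the gene and so depends on the annotation.

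BHLHE40-AS1 is named after the transcriptional repressor BHLHE40, another hypoxia-responsive gene. It had 21, 77 and 36 reads under hypoxia and 14, 7 and 7 under normoxia, and the groups did not overlap (log2-fold change 2.15 ± 0.47, a description for the same reason). BHLHE40 rose by more (3.55 ± 0.10). LOXL1-AS1, named after a lysyl oxidase of the extracellular matrix, had a small increase of 0.42 ± 0.15 (edgeR adjusted p = 0.0203). Its call was lost without hypoxia replicate 2 (0.31, edgeR adjusted p = 0.110) and without normoxia replicate 1 (0.34, edgeR adjusted p = 0.0906). KDM4A-AS1, named after a histone demethylase, had -0.29 ± 0.31, and ZEB1-AS1, named after a repressor of epithelial genes, had 0.45 ± 0.25. Neither passed, although ZEB1-AS1 did so without normoxia replicate 2 (0.71, edgeR adjusted p = 0.0181). Of the partners, LOXL1 (0.00055 ± 0.21) and KDM4A (-0.02 ± 0.08) did not pass. ZEB1 had 8, 8 and 0 reads under hypoxia and 4, 1 and 2 under normoxia and was not tested.

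**Figure D2:**
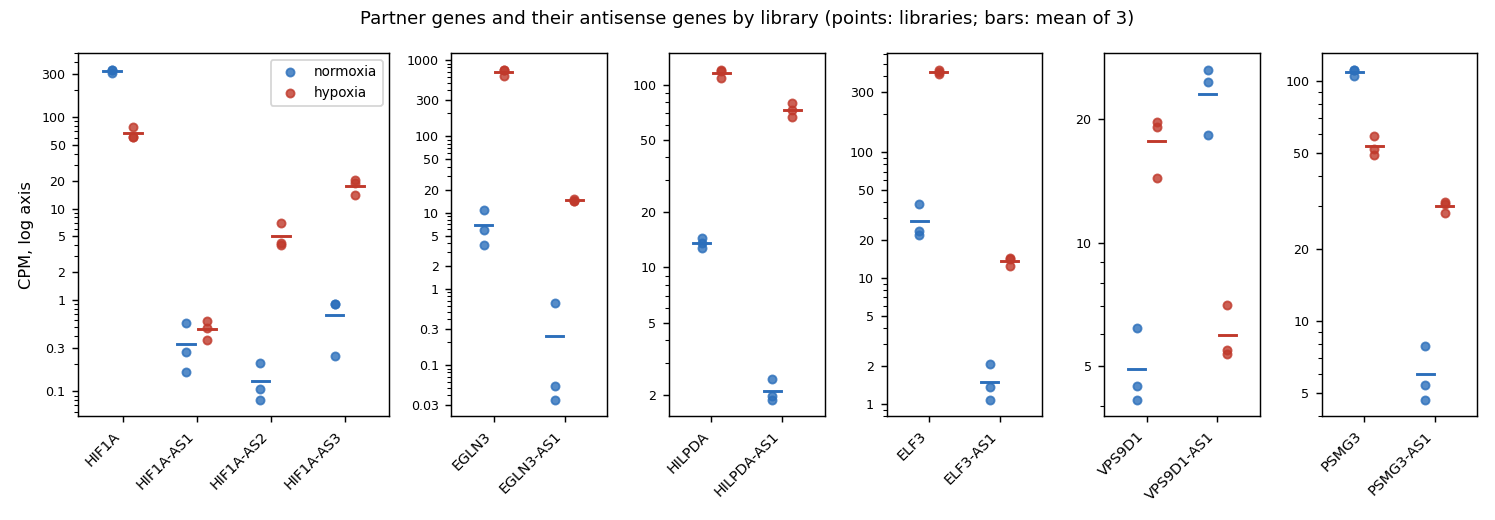
Level in CPM (y axis, log scale, its own range in each panel) of 6 partner genes and their antisense genes in each library (points; normoxia blue, hypoxia red; bars are means of 3). HIF1A is lower and HIF1A-AS2 and HIF1A-AS3 are higher in every hypoxia library, EGLN3, HILPDA and ELF3 move upward with their antisense genes, and for VPS9D1 and PSMG3 the pair moves in opposite directions.

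HILPDA-AS1 had the largest increase among antisense genes with 10 reads in all 6 libraries. HILPDA encodes a lipid droplet protein that is induced by low oxygen and inhibits triglyceride breakdown. HILPDA-AS1 had 2023, 2938 and 2349 reads under hypoxia and 74, 54 and 73 under normoxia. The groups lay far apart, and the log2-fold change was 5.10 ± 0.11 (edgeR adjusted p = 1.35e-15). HILPDA rose by 3.09 ± 0.07, from 539, 387 and 379 reads to 3310, 4414 and 3910. The log2 ratio of the antisense gene to HILPDA went from -2.66 ± 0.27 to -0.68 ± 0.08 (SD, n = 3), so the antisense gene rose by more than its partner. Per length it stood at 34.5 FPKM under hypoxia.

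Of the other large increases, ELF3-AS1 and TNFRSF14-AS1 rose with their partners. ELF3 is an epithelial transcription factor of the ETS family, and its antisense gene had 383, 525 and 465 reads under hypoxia and 40, 39 and 61 under normoxia (log2-fold change 3.21 ± 0.18, edgeR adjusted p = 4.27e-11). ELF3 rose by more, at 3.95 ± 0.14. TNFRSF14, a receptor that modulates T cells, rose by 1.66 ± 0.11, and TNFRSF14-AS1 by 3.27 ± 0.18, from 61, 23 and 42 reads to 376, 485 and 411. In both antisense genes the groups were well separated. HLA-F-AS1, beside a non-classical class I histocompatibility gene, rose by 2.55 ± 0.17, and HLA-F by 1.73 ± 0.08. HLA-F belongs to a family of similar genes, among which reads can be divided.

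CLDN14-AS1, named after a tight junction claudin, had 179, 286 and 260 reads under hypoxia and 13, 11 and 19 under normoxia (log2-fold change 3.98 ± 0.25, edgeR adjusted p = 1.62e-10). IGFL2-AS1, named after a gene of the IGF-like family, had 593, 631 and 512 reads against 49, 31 and 38 (3.81 ± 0.15, edgeR adjusted p = 5.62e-13). Neither overlapped between the groups. RUNDC3A-AS1 rose by 2.64 ± 0.31, and its partner was nearly silent under normoxia with 1, 1 and 0 reads.

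SLC9A3-AS1 rose where its partner did not pass the test. SLC9A3 encodes a sodium-proton exchanger of the apical membrane. The antisense gene had 571, 641 and 475 reads under hypoxia and 41, 18 and 60 under normoxia, with no overlap (log2-fold change 3.75 ± 0.23, edgeR adjusted p = 8.77e-11). SLC9A3 had 120, 159 and 151 reads against 197, 127 and 190 (-0.33 ± 0.17, edgeR adjusted p = 0.0866). In GENCODE v29 the antisense gene lies inside SLC9A3 and shares 830 exon bases with it. NR2F2-AS1, head to head with the nuclear receptor gene NR2F2, had 119, 131 and 115 reads under hypoxia and 23, 15 and 21 under normoxia (2.56 ± 0.26, edgeR adjusted p = 7.26e-08). NR2F2 rose by less, at 0.71 ± 0.06. The starts of both antisense genes follow, since they were among the 10 largest increases and differ in the motif that they hold. Being chosen for their motifs, these starts do not show how often large increases hold a match. They are RefSeq windows (GRCh38.p14) at chr5:472986-473285 on the plus strand for SLC9A3-AS1 and chr15:96327069-96327368 on the minus strand for NR2F2-AS1, with capitals as for HIF1A-AS3.
SLC9A3-AS1: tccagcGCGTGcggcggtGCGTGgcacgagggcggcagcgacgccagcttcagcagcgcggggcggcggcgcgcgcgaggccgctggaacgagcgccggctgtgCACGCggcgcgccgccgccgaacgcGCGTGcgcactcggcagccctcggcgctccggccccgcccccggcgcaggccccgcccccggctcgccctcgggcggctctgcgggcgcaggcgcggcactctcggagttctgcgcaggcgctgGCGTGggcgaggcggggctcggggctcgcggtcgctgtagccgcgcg
NR2F2-AS1: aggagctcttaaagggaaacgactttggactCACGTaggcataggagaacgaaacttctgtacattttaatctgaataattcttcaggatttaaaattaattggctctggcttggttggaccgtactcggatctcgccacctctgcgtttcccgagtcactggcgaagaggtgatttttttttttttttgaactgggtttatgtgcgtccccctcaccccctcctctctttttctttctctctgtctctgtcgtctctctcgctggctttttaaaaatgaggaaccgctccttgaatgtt
SLC9A3-AS1 held 5 matches to GCGTG and 0 to ACGTG, and NR2F2-AS1 held 1 match to ACGTG and 0 to GCGTG. The first bases after the start lay in a transcript of the same gene in GENCODE v29 for HIF1A-AS3 and SLC9A3-AS1, and not for NR2F2-AS1, so that the start of NR2F2-AS1 depends on the annotation.

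The motifs were also counted over the antisense genes. A RefSeq window was matched for 331 of the 430 genes. ACGTG was in 27.5% of these windows, GCGTG in 49.8% and either in 62.2%, against 21.6%, 36.3% and 48.4% of the 27305 RefSeq windows of the same length. Those 27305 windows were taken whether or not their gene was detected, while the antisense genes were chosen as detected. The sets are therefore unlike, and the higher shares are not shown to be particular to antisense genes. Each window was counted once whatever its number of matches on either strand; CACGTG holds ACGTG on both strands, and a window could hold both motifs. Of the 59 antisense genes with ACGTG and 10 reads in all 6 libraries, 23 were higher and 12 lower, with a median log2-fold change of 0.28. Of the 152 without it, 71 were higher and 16 lower, with a median of 0.47. For GCGTG, 44 of 108 genes with a match were higher and 14 lower (median 0.39), and 50 of 103 without were higher and 14 lower (median 0.50). Beside them, 35.6% of all genes with 10 reads in all 6 libraries were higher and 42.6% lower. Of the 265 antisense genes of that kind, 46.4% were higher and 13.2% lower. The differences were not tested. These shares are descriptions and say nothing of binding.

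**Figure D3:**
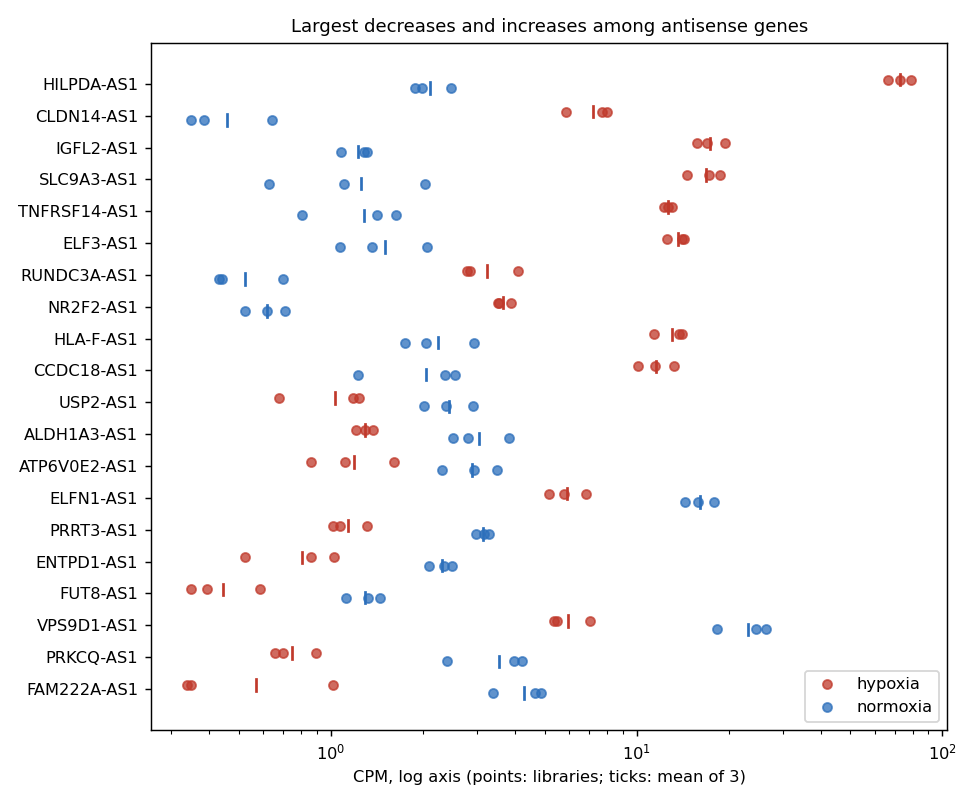
Level in CPM (x axis, log scale) of the 10 antisense genes with the largest increase and the 10 with the largest decrease (y axis), among those with 10 reads in all 6 libraries and no overlap between the groups. Points are libraries (hypoxia red, normoxia blue) and ticks are means of 3; HILPDA-AS1 reaches a mean of 72.5 CPM under hypoxia from 2.11 CPM, and FAM222A-AS1 falls from 4.30 to 0.57 CPM.

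The largest decreases were smaller than the largest increases. FAM222A-AS1 had 31, 13 and 11 reads under hypoxia and 181, 133 and 100 under normoxia. The first hypoxia library was the highest of its group and still below every normoxia library. The log2-fold change was -2.95 ± 0.34 (edgeR adjusted p = 3.65e-07), and -3.64 without that library. FAM222A fell with it (-1.41 ± 0.27). PRKCQ-AS1, named after protein kinase C theta, had 20, 26 and 29 reads against 148, 121 and 71 (-2.24 ± 0.29, edgeR adjusted p = 1.59e-06), while PRKCQ itself had at most 21 reads in any library. ENTPD1-AS1, named after the ectonucleotidase CD39, had 16, 38 and 28 reads against 93, 67 and 62 (-1.51 ± 0.30, edgeR adjusted p = 0.000184). ENTPD1 had few reads and moved the other way, with 11, 25 and 19 reads under hypoxia and 1, 0 and 3 under normoxia, without overlap.

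ELFN1-AS1, named after a postsynaptic adhesion protein, fell from 16.1 ± 1.75 to 5.93 ± 0.84 CPM (SD, n = 3), a log2-fold change of -1.43 ± 0.13 (edgeR adjusted p = 1.44e-08). FUT8-AS1 (-1.55 ± 0.37) is named after the core fucosyltransferase, ATP6V0E2-AS1 (-1.30 ± 0.28) after a subunit of the vacuolar proton pump, and ALDH1A3-AS1 (-1.24 ± 0.25) after a retinaldehyde dehydrogenase. In these 3 pairs the partner fell as well, by 0.76, 0.79 and 1.19 on the log2 scale. PRRT3-AS1 (-1.47 ± 0.24) fell while PRRT3 rose by 0.72 ± 0.22. USP2-AS1, beside a deubiquitinase gene, fell by 1.23 and USP2 by 0.74 on the log2 scale.

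A few antisense genes had reads in almost only 1 condition. L3MBTL2-AS1, named after a Polycomb group protein, had 20, 27 and 15 reads under hypoxia and none in any normoxia library, which is at least 19.7-fold higher against a floor of 3 counts over the normoxia group. UPK1A-AS1, named after a uroplakin of the urothelium, had 25, 40 and 36 reads against 1, 0 and 0, a ratio of 96.2 (95% exact counting interval 16.9 to 3837). MEIS1-AS3, named after a homeobox cofactor, had 26, 25 and 18 reads against 1, 0 and 0, a ratio of 65.7 (11.4 to 2633). The wide intervals cover counting error only, and the size of these changes is poorly fixed. IRAG1-AS1 had 19, 14 and 20 reads against 0, 1 and 0, a ratio of 50.5 (8.68 to 2031). Each of these 3 genes had its only normoxia read in 1 library, without which its normoxia group was at 0. All 4 were chosen through their hypoxia reads, and their values are descriptions.

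The most abundant antisense genes changed little, apart from HILPDA-AS1, HIF1A-AS3 and ELFN1-AS1. FGD5-AS1 had the highest mean over the 6 libraries, 22.4 FPKM, although HILPDA-AS1 and HIF1A-AS3 stood above its 21.1 FPKM under hypoxia. It had 91.0 ± 0.37 CPM under hypoxia and 105 ± 3.57 under normoxia (SD, n = 3). The groups did not overlap and the log2-fold change was -0.21 ± 0.05 (edgeR adjusted p = 0.00127). BCAN-AS1 rose by 0.36 ± 0.05, to 135 ± 3.46 CPM from 105 ± 0.83, although BCAN, a brain proteoglycan, had at most 10 reads in any library. PITPNA-AS1, named after a phosphatidylinositol transfer protein, rose by 0.51 ± 0.14, whereas AGAP2-AS1 (-0.05 ± 0.10) and SPINT1-AS1 (0.15 ± 0.13) did not pass.

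Of 28 antisense genes with a described cellular role, 21 were detected. Among these, 10 were higher, 3 lower and 8 did not pass, beside 39.2% higher and 38.5% lower of all tested genes. The 10 include 2 genes detected through their hypoxia libraries alone, GAS6-AS1 and HIF1A-AS2. Of the 17 with 10 reads in all 6 libraries, 7 were higher, 3 lower and 7 did not pass, beside 35.6% higher and 42.6% lower of the 12665 genes of that kind. The list included the antisense genes of HIF1A. OIP5-AS1, known as Cyrano and for its base pairing with miR-7, had 76.0 ± 2.91 CPM under hypoxia and 73.9 ± 2.81 under normoxia and did not pass (log2-fold change 0.04 ± 0.06). CDKN2B-AS1, known as ANRIL and lying across the cell cycle inhibitor gene CDKN2B, rose by 1.52 ± 0.25 (edgeR adjusted p = 2.65e-05), and CDKN2B by 1.98 ± 0.16. GAS6-AS1, named after a ligand of TAM receptors, had 27, 25 and 24 reads against 4, 0 and 2 (3.53 ± 0.61, and 4.31 without normoxia replicate 1). It was detected through its hypoxia libraries alone, so its increase was built into its choice. TMPO-AS1, head to head with a lamina-associated gene, fell by 1.21 and TMPO by 1.29 on the log2 scale.

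In the HOX clusters, which hold the homeobox genes of body patterning, 3 antisense genes were detected. HOXA-AS2 had 344, 336 and 322 reads under hypoxia and 45, 52 and 93 under normoxia (log2-fold change 2.31 ± 0.23, edgeR adjusted p = 6.39e-08). In HOXA-AS2 the groups were separate. HOXC-AS1 had 21, 48 and 36 reads against 2, 8 and 8 (2.41 ± 0.51), and as it was detected through its hypoxia libraries alone this is a description. HOXA-AS3 was near the limit, with 5, 13 and 3 reads against 13, 9 and 12, and did not pass (-0.77 ± 0.55). Without hypoxia replicate 2 its log2-fold change was -1.46, and it did not pass either (edgeR adjusted p = 0.0579).

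Antisense genes whose partner has a symbol that begins with ZNF, ZSCAN or ZKSCAN, names of zinc finger genes that are largely transcriptional regulators, numbered 17, of which 16 were tested. Partners of other zinc finger families, such as ZEB1, were not counted. Among them 9 were higher, 2 lower and 5 did not pass, with a median log2-fold change of 0.90, beside 39.2% higher and 38.5% lower of all tested genes and 50.5% higher and 10.8% lower of the tested antisense genes. ZNF436-AS1 (2.18 ± 0.27) and ZNF22-AS1 (1.68 ± 0.22) had the largest increases, and ZNF232-AS1 (-0.80 ± 0.22) and ZNF674-AS1 (-0.68 ± 0.21) were the decreases. Of the 14 with 10 reads in all 6 libraries, 8 were higher and 2 lower. The shares were 35.6% and 42.6% for all 12665 genes of that kind, and 46.4% and 13.2% for the 265 antisense genes. Some of these calls were close to the threshold and were lost when 1 library was left out while the log2-fold change stayed similar. ZNF710-AS1 (0.92 ± 0.37) was lost whichever library was left out, at 0.85 to 0.97 (edgeR adjusted p up to 0.101). ZNF566-AS1 (0.88 ± 0.34) was lost at 0.78 to 0.91 (edgeR adjusted p up to 0.0931) and ZNF225-AS1 (1.27 ± 0.49) at 0.95 to 1.30 (up to 0.127). ZNF503-AS2 (1.02 ± 0.34) was lost without normoxia replicate 1 (0.86, adjusted p = 0.0526). With the replicate number as a block, ZNF566-AS1 (adjusted p = 0.0529) and ZNF710-AS1 (0.0632) were lost as well, and ZNF407-AS1 was gained (0.0450). Of the 5 that did not pass, ZNF407-AS1 passed as higher under 6 alternatives (edgeR adjusted p down to 0.00646, without normoxia replicate 1), ZSCAN16-AS1 under 2 and ZNF433-AS1 under 1.

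A partner gene had a row in the table for 410 of the 430 antisense genes, and 401 of the 405 distinct partners were protein-coding. Positions were taken from GENCODE v29, in which 353 pairs could be placed. The antisense gene overlapped the start of its partner head to head in 175 pairs and its end tail to tail in 70, lay inside the partner in 63 and around it in 22. In 22 pairs the genes diverged without overlap, and in 1 they converged without overlap. Exon bases were shared in 269 of the 353 pairs, with a median of 277 bases. For 61 of the 353 pairs the RefSeq spans gave another answer on whether the genes overlap, so these classes depend on the annotation.

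Antisense genes and their partners changed in the same direction somewhat more often than in opposite directions. In 219 pairs both genes had 10 reads in all 6 libraries. Both passed in 106 of them, of which 65 had the same direction (47 both higher and 18 both lower) and 41 opposite directions (36 with the antisense gene higher and the partner lower, 5 the reverse). Over all tested genes 77.8% passed in either direction. The share with the same direction, 61.3%, was close to the 61.0% of the protein-coding neighbours described below. The share that unlinked genes with these calls would give is not given here. Across the 219 pairs the log2-fold changes had a Pearson's r of 0.33 and a Spearman's rho of 0.25, given as a description, since both genes of a pair come from the same libraries and may share reads. The median log2-fold change was 0.50 for the antisense genes and -0.02 for the partners. The median level per length of the antisense gene was 14.2% of that of its partner, and in 30 pairs it was above the partner. Over all 364 pairs in which both genes were tested, 113 had the same direction and 68 opposite directions.

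**Figure D4:**
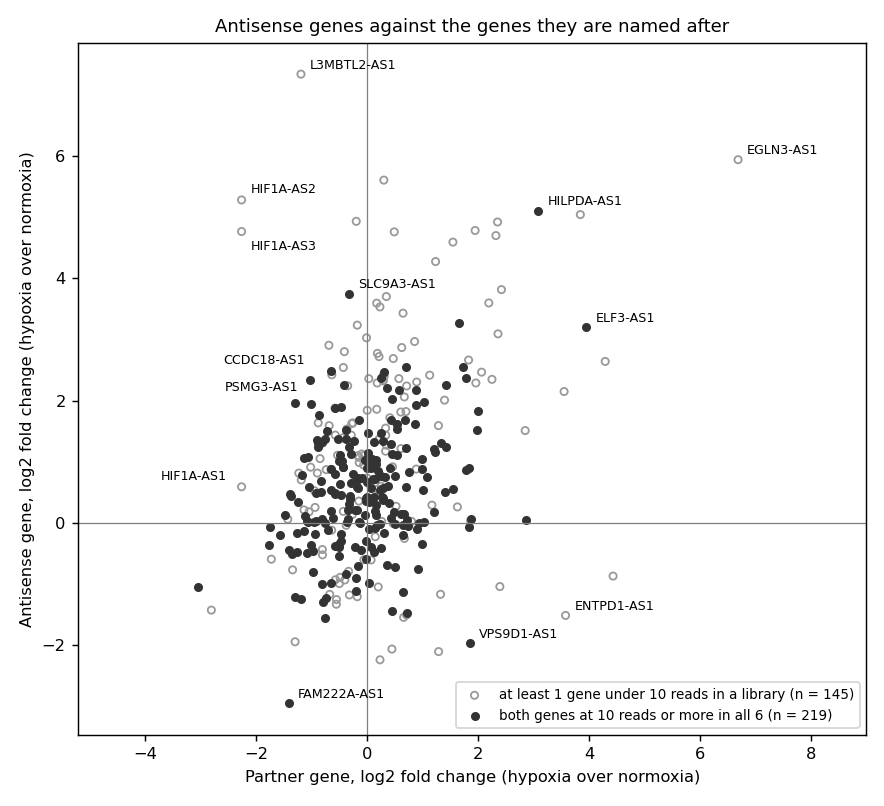
Log2-fold change of the antisense gene (y axis) against that of its partner (x axis), hypoxia over normoxia, for 364 pairs with both genes tested. Filled points have 10 reads or more in all 6 libraries for both genes and open points do not; HIF1A-AS2 and HIF1A-AS3 lie far above 0 at a partner value of -2.26, EGLN3-AS1 lies at the upper right, and the fitted value of L3MBTL2-AS1, without a normoxia read, depends on the method.

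By arrangement, with 10 reads in all 6 libraries for both genes, the 100 head-to-head pairs had 27 pairs with the same direction and 19 with opposite directions. The 43 tail-to-tail pairs had 15 and 13, the 27 pairs with the antisense gene inside its partner 10 and 2, and the 12 divergent pairs without overlap 4 and 0. The 12 pairs with the partner inside the antisense gene had 3 and 2, and the 24 pairs not placed in GENCODE v29 had 6 and 5. The 1 convergent pair had 0 and 0. Where exon bases were shared, 44 of 76 pairs with both genes called had the same direction (57.9%), and where none were shared, 15 of 19 (78.9%). These numbers are small and the difference was not tested. For scale, among 617 pairs of protein-coding neighbours that diverge from starts within 1000 bases, 395 had both genes called and 61.0% of these had the same direction. Antisense genes and partners that start within 1000 bases of each other, head to head or divergent, had 63.6% of 33.

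Of the 8 largest opposite pairs among those with 10 reads in all 6 libraries for both genes, a limit that leaves out HIF1A-AS2 and HIF1A-AS3, that of VPS9D1 was the one in which the antisense gene fell. VPS9D1-AS1 lies inside VPS9D1, a gene with a domain of endosomal exchange factors, and shares 518 exon bases with it. It had 215, 204 and 174 reads under hypoxia and 917, 756 and 542 under normoxia (log2-fold change -1.96 ± 0.14, edgeR adjusted p = 8.39e-10). VPS9D1 had 584, 734 and 467 reads against 154, 128 and 183 (1.85 ± 0.15, edgeR adjusted p = 5.92e-09). The order of the pair thus reversed, with a log2 ratio of antisense to partner of 2.22 ± 0.57 under normoxia and -1.56 ± 0.24 under hypoxia (SD, n = 3).

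PSMG3-AS1 starts beside PSMG3, a chaperone of proteasome assembly, with 858, 1143 and 1019 reads under hypoxia and 174, 154 and 233 under normoxia (log2-fold change 2.34 ± 0.14, edgeR adjusted p = 6.42e-11). PSMG3 fell by 1.03 on the log2 scale, from 4146, 3176 and 3109 reads to 1809, 1821 and 1688. In both genes the groups were separate.

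In other opposite pairs the antisense gene rose as well. CCDC18-AS1 rose by 2.48 ± 0.20 and CCDC18, a coiled-coil gene, fell by 0.64 on the log2 scale. PRKAR2A-AS1 rose by 1.94 ± 0.29 while PRKAR2A, a regulatory subunit of protein kinase A, fell by 1.01. SOX9-AS1 rose by 2.26 ± 0.31 while SOX9, a transcription factor of cartilage and epithelial progenitors, fell by 0.41. PSMD6-AS2 rose by 1.76 ± 0.28 while PSMD6, a subunit of the proteasome lid, fell by 0.86. MAGEA4-AS1 rose by 1.88 ± 0.20 while MAGEA4, a cancer-testis antigen with near-identical relatives that may share reads, fell by 0.58.

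Among the pairs with the same direction, ITGB2-AS1 rose by 2.37 ± 0.14 and ITGB2, the beta 2 integrin chain, by 1.78 ± 0.09. Over the 219 pairs with 10 reads in all 6 libraries for both genes, the log2 ratio of antisense to partner did not overlap between the conditions in 141 (64.4%). For scale, the same ratio did not overlap in 494 of the 617 pairs of divergent protein-coding neighbours (80.1%). The levels were unlike, with a median of 1.17 FPKM for antisense and 7.08 FPKM for protein-coding genes with 10 reads in all 6 libraries. Low genes have noisier ratios, so no conclusion is drawn from these shares. The ratio did not overlap in any of the 14 named pairs with 10 reads in all 6 libraries, the 8 largest opposite and 6 largest same-direction ones. These pairs were chosen for the size of their changes, and their ratios are descriptions.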

How the data were processed

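The conditions, replicate numbers and exposure were taken from the sample labels; the libraries are labelled SCC25, whereas the study's text names SCC9 for the plot of these data. The authors deposited counts, whole numbers of reads per gene, for 21776 genes without normalization. They also deposited FPKM of the same genes. For all but 1 gene the FPKM followed from these counts, a gene length and the library total. The submitters' processing notes name the builds GRCm38 and mm10, which are of mouse, whereas the rows are human genes; the aligner, the annotation and the strand setting are not given in the sources used here. The table also pairs genes with Entrez numbers and a coding type. The antisense genes and the lists were chosen with earlier results of these data known.

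Counts were tested in R 4.3.3 with edgeR 4.0.16 (quasi-likelihood F test, TMM, condition as the only term). filterByExpr kept 14255 genes, over which p-values were adjusted by Benjamini-Hochberg with a threshold of 0.05. Standard errors were obtained as log2-fold change over the root of F. CPM were computed on the TMM-adjusted total, and log2 ratios of CPM used a prior count of 2. The biological coefficient of variation was 0.0685. No pair of replicates agreed within sampling noise (chi-square per gene 5.11 or more), and each library counted as 1 replicate. With 29637189 to 37278703 reads per library, a group without reads was given a floor of 3 counts over the group; intervals and floors cover counting error only.

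Alternatives were DESeq2's size factors, the DESeq2 1.42.0 Wald test, no filter, 10 counts or more in every library, a block for the replicate number, leaving out each library, a log2-fold change over 1, and limma 3.58.1 on log2(FPKM + 1) or log2(FPKM + 0.1) with a filter at a mean of 1 FPKM, and on log2(FPKM + 1) without it. Leaving out libraries from the ratios of pairs, and leaving HILPDA-AS1 and BCAN-AS1 out of the share of reads, were added after seeing the data. On simulated counts with 197 changed genes among 14244 tested, edgeR found 194 with 5.37% of its calls false. The simulation gave all genes the same spread and changed far fewer genes than the 77.8% called in the data. It therefore does not measure how well changes in antisense genes with few reads are found.

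Named genes were the 10 largest increases and 10 largest decreases with 10 reads in all 6 libraries and no overlap; the 6 largest changes among genes with fewer than 3 libraries of a condition at 10 reads; the 8 highest FPKM; among pairs with 10 reads in all 6 libraries for both genes, the 8 largest opposite and 6 largest same-direction ones; antisense genes of the hypoxia, role, HOX and zinc finger lists; and genes at the limit of detection. CNIH3-AS2, and partners at few reads, were named after their values were seen. Arrangements came from GENCODE v29, matched by symbol and identifier, and starts from RefSeq (GRCh38.p14), with 1 window per gene. One of the opposite pairs is not reported here.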

Additional observations from a re-analysis of the deposited data

How the results depend on the processing

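For the 265 antisense genes with 10 reads in all 6 libraries (123 higher and 35 lower), counting under the alternatives was added after seeing the data. Increases outnumbered decreases in each, with 111 to 124 higher, 27 to 33 lower and a median log2-fold change of 0.44 to 0.50 when 1 library was left out, against 32.8% to 35.1% higher and 41.3% to 43.5% lower of all 12665 genes of that kind. With a log2-fold change over 1 they had 79 higher and 15 lower, against 13.9% and 11.1% of those genes. The counts that follow are over all antisense genes tested (418, with 211 higher and 45 lower), which include those detected through hypoxia alone; there 79.5% to 87.0% of the calls were upward. With 10 counts required in every library, 136 were higher and 28 lower (median log2-fold change 0.55), with 71 pairs in the same and 42 in opposite directions; 265 antisense genes were tested, and 78.7% of all genes tested were called. By limma on log2(FPKM + 1), for which 160 antisense genes passed the filter, the values were 93, 24, 0.39, 50 and 24 (80.9% of all genes tested called), and with a pseudocount of 0.1 they were 93, 23, 0.55, 49 and 24 (80.6%). By limma on log2(FPKM + 1) without the filter, 224 were higher and 35 lower, with a median of 0.24 (52.3% of all genes called). Requiring a log2-fold change over 1 left 167 higher, 25 lower, 39 same-direction and 13 opposite pairs, and 2840 higher and 1498 lower (30.4%) of all 14255 genes tested. Leaving out 1 library gave 189 to 217 higher and 36 to 44 lower, a median of 0.69 to 0.80, and 95 to 116 same-direction and 57 to 68 opposite pairs, with 73.3% to 77.4% of all genes tested called. The replicate numbers did not pair the samples (correlations of same-numbered deviations 0.018, -0.069 and 0.0012), and with the replicate number as a block 206 were higher and 44 lower, with 76.3% of all genes tested called.

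Of 77 named antisense genes, 12 of 462 values changed sign when 1 library was left out and 13 of 536 under the other alternatives, all in genes that did not pass. AGAP2-AS1 became 0.031 with 10 counts in every library and 0.0050, 0.0058 and 0.0050 in the limma fits. EPB41L4A-AS1 became 0.00060 with DESeq2's size factors, 0.00047 by the Wald test, 0.075 with 10 counts in every library and 0.040, 0.043 and 0.040 in the limma fits. FOXD2-AS1 became -0.015 and SBF2-AS1 -0.035 without the filter, and SBF2-AS1 -0.00185 with the replicate block. Leaving out 1 library gave -0.14 to 0.058 for AGAP2-AS1, -0.091 to 0.074 for EPB41L4A-AS1, -0.051 to 0.11 for FOXD2-AS1, -0.016 to 0.32 for GABPB1-AS1, -0.069 to 0.095 for SBF2-AS1 and -0.21 to 0.32 for ZNF213-AS1. The calls of LOXL1-AS1, ZNF225-AS1, ZNF503-AS2, ZNF566-AS1 and ZNF710-AS1 were lost under 1 alternative or more, and MAPKAPK5-AS1, ZEB1-AS1, ZNF407-AS1, ZNF433-AS1 and ZSCAN16-AS1 passed under 1 or more. The cause of these changes was not tested. With 3 libraries a group, genes with few reads have wide errors.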
